A study of Mus musculus with 185 samples.

Results

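Chemokines and chemokine receptors were read out in single epidermal Langerhans cells (LCs). Members were all genes of the deposited count table whose symbol is that of a CC, CXC, CX3C or XC chemokine, of one of their receptors or of an atypical chemokine receptor. Ccrl genes and symbols of pseudogenes were left out. The rule gave 60 of 45661 genes, 38 ligand genes and 22 receptor genes. The cells came from bone marrow chimeras (BMC) of B6 mice in which lethally irradiated CD45.1 Cd207DTR hosts carried WT CD45.2 bone marrow. All hosts were given 5 ng of diphtheria toxin (DT) per gram of body weight, and the epidermis was taken 2 months later. Cd207DTR hosts carry the DT receptor in the gene of langerin, so the host LCs (eLCs, CD45.1, Cd207DTR) are those that the mice still had at that time, whereas donor LCs (moLCs, CD45.2) have WT Cd207. The sort gate required CD11c, CD11b, CD24, MHCII and CD326 and left out cells with markers of T cells, B cells, NK cells, neutrophils and eosinophils. After 3 moLCs with over 5% of their reads on mitochondrial genes were left out, 182 cells were used, with 67 moLCs and 29 eLCs on plate 1 and 36 moLCs and 50 eLCs on plate 2. No label names an animal. Each origin was therefore a single sample that allows no test against the other. Host LCs went through the irradiation and the transplanted marrow did not, so irradiation cannot be told apart from origin.

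Chemokines are small secreted proteins that guide moving leukocytes through G protein-coupled receptors. CCR7 and its ligands CCL19 and CCL21 lead mature LCs and dermal dendritic cells from skin into lymphatics and to the skin-draining lymph nodes (sLN), while ligands made by LCs and keratinocytes draw T cells, monocytes and neutrophils into the epidermis. Atypical receptors bind chemokines without signalling through G proteins and remove them from the surroundings.

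Gene reads per cell ranged from 432614 to 4525429, and the medians of moLCs and eLCs were 2948819 and 2779080. All 8 Langerhans cell markers were read, Cd74 and H2-Ab1 in all cells and Cd207 in 181 cells. They summed to 205744 and 213770 counts per 1000000 reads (CPM) in moLCs of plates 1 and 2 and to 197507 and 182459 CPM in eLCs. Over all cells Cd74 (76307 CPM), H2-Ab1 (59430.5) and H2-Aa (35317) were the highest of the 8. The gate itself required MHCII, CD24 and CD326, so this sum does not test the label. Markers of other cells were low. The 8 keratinocyte genes reached 26.5 CPM in moLCs against 4.86 in eLCs with Krt1 and Dsp at 0, the 8 T cell genes 5.59 and 9.53 CPM with Cd3e, Trdc, Thy1 and Gzmb at 0, and the 5 dermal DC1 genes 56.8 and 94.03 CPM with none at 0. The 6 monocyte genes summed to 0.230 and 0.0138 CPM, the 4 melanocyte genes to 0.633 and 0.0689 CPM and the 4 neutrophil genes to 0.0266 and 0 CPM, each list with 3 genes at 0, and all 3 mast cell genes were at 0.

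Among the cells, 2 stood apart, moLCs of plate 1 with less than 50 CPM of Cd207, a limit chosen after the data were seen. The next cell had 76.5 CPM, and the median was 23839 CPM in moLCs and 1448 CPM in eLCs. The first of these moLCs had no Cd207 read and the least H2-Ab1 of all cells, 233 CPM against a median of 59873 CPM. It held the most Ccl22, Ccl17 and Cxcl3 of all cells and the second highest level of Ccr7, and members made up 88662 CPM of its reads. The second had 42.6 CPM of Cd207, 44547 CPM of H2-Ab1 and reads of 17 members, more than any other cell. Of these, Ccr3, Ccr9 and Cxcr6 were read in no other cell. Values that rest on these 2 cells are given with and without them.

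In all, 12 of the 60 members, 7 ligands and 5 receptors, had a read in at least 5% of cells, as did 10729 of all 45661 genes. Cxcl16, which encodes a membrane-anchored ligand of CXCR6 that also takes up oxidized lipids, was read in 180 of 182 cells. Cxcl2, a neutrophil attractant, was read in 144 cells and Cxcl3, on the same chromosome, in 115. Ccr7 was read in 71 cells and Ccl22, a ligand of CCR4, in 70. Below these were Ccr1, a receptor of inflammatory CC chemokines, in 43 cells, and Cxcr4, the receptor of CXCL12, in 36. Ccl2, a monocyte attractant, was read in 22 cells, Xcr1, the receptor of XCL1, in 19, Cxcr5, the receptor of CXCL13, in 17, Ccl3, which attracts monocytes and T cells, in 11, and Cxcl1, a further neutrophil attractant, in 10. Cxcl1 thus lay just inside the threshold, and Ccl25 and Ccl27a, each read in 9 cells, just outside it.

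**Figure D1:**
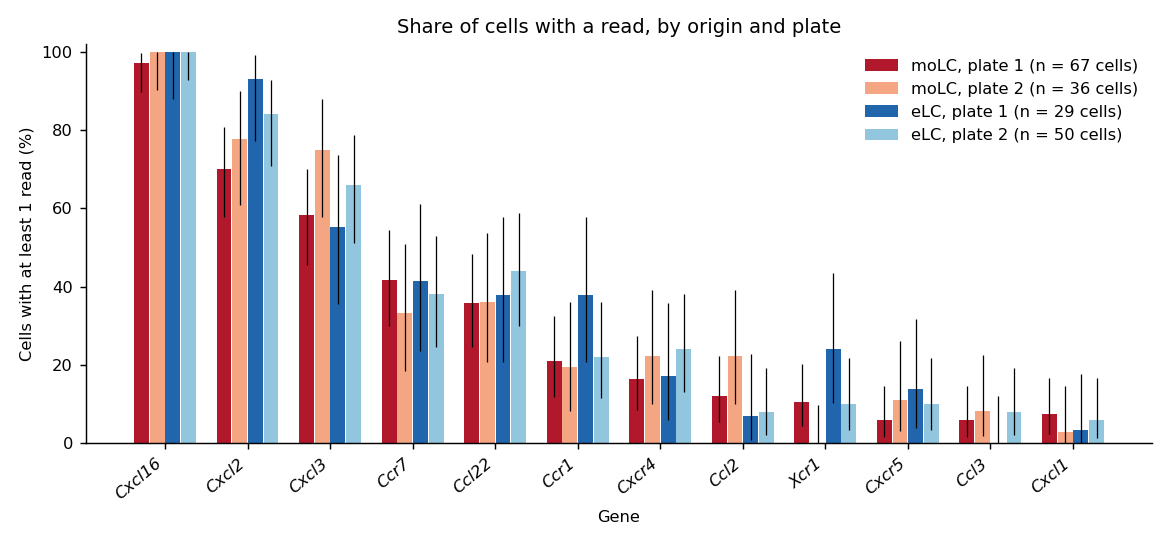
Share of cells with at least 1 read (y axis, %) for the 12 members read in at least 5% of cells, by origin and plate. Bars are shares and lines are exact Clopper-Pearson 95% intervals, which cover counting error only. Cxcl16 was read in nearly all cells of each set, and Xcr1 in no moLC of plate 2.

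A further 26 members were read in fewer cells, 15 of them in 1 cell and 11 in 2 to 9. Of the 26, 17 were read only in moLCs, 5 only in eLCs and 4 (Ccl17, Ccl25, Ccl27a and Cx3cl1) in both. Of all 7092 genes read in under 5% of cells, 32.7% were read only in moLCs and 19.5% only in eLCs. Of the 15 members read in 1 cell, 11 were read in a moLC, against 60.9% of the 2669 genes read in 1 cell, which were a smaller part of the 7092 than the 15 were of the 26. The second moLC low in Cd207 alone gave 3 of the 17, Ccr3, Ccr9 and Cxcr6. Of the 60 members 38 had a read, and of all 45661 genes 17821. No read in any of the 182 cells was found for 22 members. These were the ligands Ccl5, Ccl7, Ccl11, Ccl12, Ccl19, Ccl21a, Ccl21b, Ccl26, Cxcl5, Cxcl11, Cxcl13, Cxcl14, Cxcl15, Cxcl17 and Xcl1 and the receptors Ackr2, Ackr4, Ccr4, Ccr6, Ccr8, Cxcr1 and Cxcr3. A count of 0 of 182 cells allows a share of cells with a read of up to 1.65% at a limit of 3 cells, and of up to 2.01% at the upper end of the exact interval. Each cell had reads of 0 to 17 members, with a median of 4 in each origin and plate. Intervals of shares are exact Clopper-Pearson 95% intervals, and they cover counting error only.

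Per kilobase of exon, over all cells, Cxcl2 had the highest level, 879 CPM per kb, followed by Cxcl16 with 597, Ccr7 with 347, Ccl17 with 325 and Ccl22 with 203 CPM per kb. The next were Ccl3 (35.1 CPM per kb), Cxcl1 (19.1), Ccl2 (18.3) and Ccr1 (14.9), and Cxcl3, Cxcr4, Cxcr5 and Xcr1 lay between 6.23 and 0.971 CPM per kb. The level of Ccl17 came from 7 cells and that of Cxcl16 from 180. Without the 2 cells low in Cd207, Ccl17 had 10.9 CPM per kb and came after Ccr1, Ccl22 had 129.997 and Cxcl3 1.32 CPM per kb, and the order of Cxcl2, Cxcl16 and Ccr7 at the top stayed as it was.

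Most members were carried by few cells. The cell with the most reads of a member held a median of 17.8% of that member's reads. Over the 10729 genes read in at least 5% of cells, which were not matched for the number of cells with a read, it was 7.78%. For Cxcl16 it was 1.48%, and 57 cells were needed for 50% of the reads. Cxcl2 needed 11 cells, Ccr7 9, Ccr1 7 and Cxcr4 6. Ccl22 and Ccl2 needed 3 cells, and Ccl3, Cxcl1 and Cxcl3 needed 2. Among the 5 receptors, 1 cell held between 11.4% (Ccr7) and 18.7% (Cxcr5) of the reads, with 12.9% for Cxcr4. Among the 7 ligands, 1 cell held between 1.48% (Cxcl16) and 45.8% (Cxcl3), with 9.25% for Cxcl2 and 36.3% for Ccl22.

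**Figure D2:**
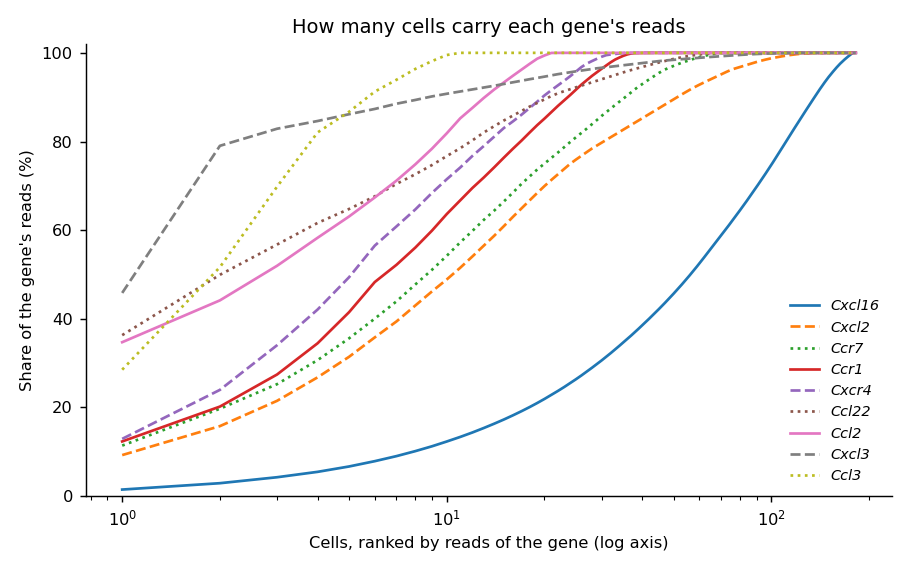
Cumulative share of a gene's reads (y axis, %) held by the cells with the most reads of it (x axis, number of cells, log scale), over 182 cells, for 9 members. The Cxcl16 line reached 50% at 57 cells and the lines of Ccl3 and Cxcl3 at 2.

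Of the 5 members in the group for homing to the lymph node, Ccr7 (chr11:99144196-99155077, minus strand, GRCm38) was read and Ccl19, Ccl21a, Ccl21b and Ackr4, which scavenges the CCR7 ligands, were not. The share of cells with a Ccr7 read lay between 33.3% (moLCs of plate 2) and 41.8% (moLCs of plate 1), with 41.4% and 38% in eLCs of plates 1 and 2, and all 4 intervals overlapped. Single moLCs reached 11689 CPM and single eLCs 5280 CPM, and the lowest and the median value were 0 in both. Among the cells with a read, the median was 1079 CPM (moLCs) and 762 CPM (eLCs). What set the moLCs of plate 1 apart was the level in cells with a read: 18 of 67 had at least 1000 CPM, against 2 of 36 moLCs of plate 2 and 5 of 29 and 8 of 50 eLCs. Summed CPM was 1142 and 337 in moLCs of plates 1 and 2 and 406 and 471 in eLCs. As a log2 ratio, moLCs over eLCs, this was 1.49 on plate 1 and -0.48 on plate 2, and the pooled value of 0.96 had no single direction. Plate 2 over plate 1 was 0.295-fold in moLCs and 1.16-fold in eLCs. Without the 2 moLCs low in Cd207 the pooled log2 ratio was 0.85.

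**Figure D3:**
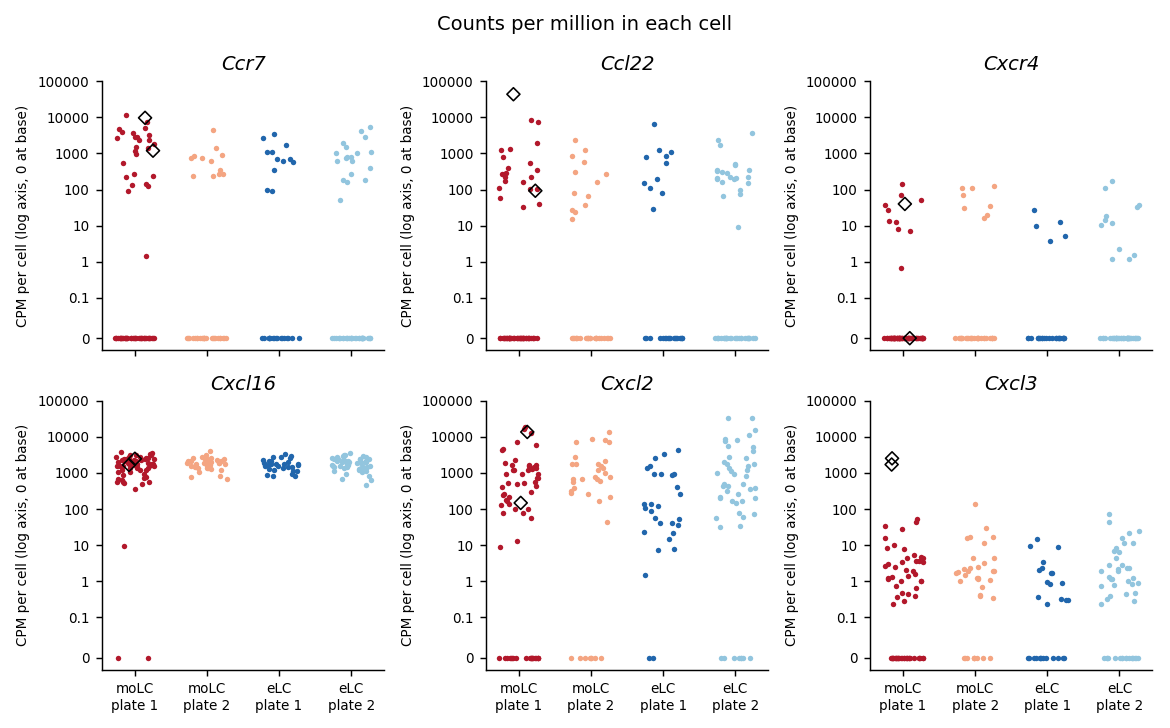
CPM in each cell (y axis, log scale with 0 at the base) for 6 members, by origin and plate. Each point is a cell and diamonds mark the 2 moLCs with less than 50 CPM of Cd207. Cxcl16 formed 1 band in all sets, and the diamonds lie at the top of the Cxcl3 panel.

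In the CCR4 and CCR8 group, Ccl22 (chr8:94745590-94751699, plus strand) and Ccl17 (chr8:94810453-94812036, plus strand) lie on either side of Cx3cl1. Both encode ligands of CCR4, a receptor of skin-homing T cells. The share of cells with a Ccl22 read was 35.9% among moLCs and 41.8% among eLCs. The highest moLC had 43178 CPM and the highest eLC 6688 CPM, the median over all cells was 0, the median of cells with a read was 263 and 229 CPM, and 8 moLCs and 6 eLCs had at least 1000 CPM. Summed CPM was 592 in moLCs and 305 in eLCs, and in moLCs 49.9% of it came from the cell without Cd207. Without the 2 cells low in Cd207 it was 300.0 CPM in moLCs, and the log2 ratio went from 0.96 to -0.02. Within plate 2, which holds neither cell, Ccl22 was lower in moLCs (183 CPM) than in eLCs (249 CPM).

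Ccl17 was read in 5 moLCs and 2 eLCs. Its sum was 288 CPM in moLCs against 1.12 in eLCs, and 1 cell, again the one without Cd207, held 64656 of the 86638 reads, or 74.6%. Without the 2 cells low in Cd207, moLCs had 8.94 CPM. Of the 7 cells with a Ccl17 read, 6 had a Ccl22 read, against 64 of the 175 cells without. Ccl1 and Ccl8, ligands of CCR8, were read in 1 cell each, and Ccr4 and Ccr8 in none.

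In the neutrophil group, Cxcl2 (chr5:90903871-90905938), Cxcl1 (chr5:90891241-90893115) and Cxcl3 (chr5:90786103-90789600), all on the plus strand, encode ligands of CXCR2. The upstream sequences are shown because the 3 genes encode ligands of 1 receptor. In addition, all cells with Cxcl1 or Cxcl3 reads also had Cxcl2 reads. However, 134 of the 172 cells without Cxcl1 had Cxcl2 reads as well, and low Cxcl3 counts cannot be told apart from Cxcl2 reads. Each sequence is from RefSeq (GRCm38.p6, plus strand), starts 250 bases before the RefSeq start and ends before the first start that GENCODE annotates. Capitals mark matches to the NF-kB consensus and to TATAAA.

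Cxcl2, chr5:90903649-90903870: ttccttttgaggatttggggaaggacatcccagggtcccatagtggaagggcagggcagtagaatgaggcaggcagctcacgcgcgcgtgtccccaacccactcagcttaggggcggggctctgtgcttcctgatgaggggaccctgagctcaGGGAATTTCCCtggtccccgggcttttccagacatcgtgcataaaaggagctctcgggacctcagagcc
Cxcl3, chr5:90785851-90786100: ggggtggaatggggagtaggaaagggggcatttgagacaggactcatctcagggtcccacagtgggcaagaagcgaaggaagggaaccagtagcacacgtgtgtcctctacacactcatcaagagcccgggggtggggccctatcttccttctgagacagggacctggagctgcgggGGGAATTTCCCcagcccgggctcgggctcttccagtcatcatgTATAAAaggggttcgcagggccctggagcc
Cxcl1, chr5:90890995-90891240: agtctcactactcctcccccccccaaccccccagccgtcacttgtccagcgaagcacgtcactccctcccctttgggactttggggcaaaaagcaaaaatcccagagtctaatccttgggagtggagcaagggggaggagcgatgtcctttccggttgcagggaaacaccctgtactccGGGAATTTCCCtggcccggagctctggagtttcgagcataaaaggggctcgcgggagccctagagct

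The NF-kB consensus, searched on both strands with overlapping matches joined, had 1 match in each of the 3 windows, the same letters GGGAATTTCCC in all. It began 97 bases before the RefSeq start of Cxcl2, 73 before that of Cxcl3 and 71 before that of Cxcl1. Of 32536 windows of 250 bases in the RefSeq table, 7.28% held such a match. TATAAA matched in the Cxcl3 window, 30 bases before the start, and in 12.3% of all windows, and TGANTCA, the AP-1 site, matched in none of the 3 windows and in 6.73% of all. Of the other 6 windows searched, that of Ccr1 held an NF-kB match (74 bases before the start) and those of Cxcr4 and Xcr1 held TATAAA, while those of Ccl22, Ccl17 and Ccl3 held none of the 3 motifs.

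Cxcl2 was the member with the most reads. Cells ranged from 0 to 18319 CPM in moLCs, with a median of 396 CPM, and from 0 to 33622 CPM in eLCs, with a median of 261 CPM. Of the moLCs 72.8% had a read (interval 63.2 to 81.1%), and of the eLCs 87.3% (77.95 to 93.8%), which is the largest difference in share among the 12 members, 14.5 percentage points, or 14.7 after thinning each cell to the same number of reads. Levels went the other way on plate 1: moLCs had 1658 CPM and eLCs 609 CPM, whereas on plate 2 moLCs had 1816 CPM and eLCs 2875 CPM. The eLCs of the plates thus differed 4.72-fold and the moLCs 1.10-fold, and the log2 ratio was 1.44 on plate 1, -0.66 on plate 2 and -0.20 over both.

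Cxcl3 was read in 115 cells, all of which also had Cxcl2 reads, while 29 cells had Cxcl2 reads alone and no cell Cxcl3 alone. The median number of Cxcl3 reads in a cell with any was 5, which was a median of 0.220% of its Cxcl2 reads (quartiles 0.135 and 0.342%). Transcripts of both genes share an identical stretch of 157 bases, longer than the 75 bases of a read end, whereas those of Cxcl3 and Cxcl1 share at most 23. How reads in this stretch were assigned is not stated, so low Cxcl3 counts cannot be told apart from Cxcl2 reads. Of the Cxcl3 values above 0, 37.4% were even numbers, against 67.95% over all members and 82.8% over all genes.

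More than 100 Cxcl3 reads were found in 7 cells, 6 moLCs and 1 eLC, which held 88.5% of them. The 2 moLCs low in Cd207 had 5175 and 3747 reads, and the first had 148 CPM of Cxcl2 beside 2520 CPM of Cxcl3. Summed Cxcl3 was 35.1 CPM in moLCs against 3.45 in eLCs, which gave a log2 ratio of 3.35 (5.07 on plate 1 and 0.70 on plate 2). Without these 2 cells moLCs had 5.46 CPM and the ratio was 0.66.

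**Figure D4:**
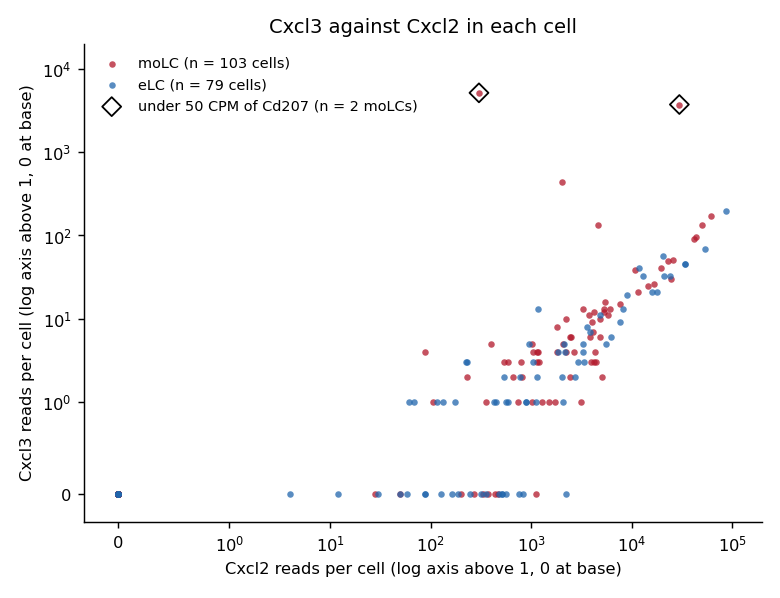
Cxcl3 reads (y axis) against Cxcl2 reads (x axis) in each of 182 cells, on log axes with 0 at the base, coloured by origin. Points are cells, and diamonds mark the 2 moLCs with less than 50 CPM of Cd207, which lie above the other cells with 5175 and 3747 Cxcl3 reads.

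Cxcl1 was read in 6 moLCs and 4 eLCs, all of them with Cxcl2 reads, which 134 of the 172 cells without Cxcl1 also had. Its sums were close over both plates, 36.7 CPM (moLCs) and 34.7 CPM (eLCs), but 54.7 and 1.75 CPM on plate 1 and 3.01 and 56.96 CPM on plate 2. The highest moLC had 1558 CPM and the highest eLC 3918 CPM, and 1 eLC of plate 2 held 65.1% of the eLC reads. Cxcr2, the receptor of these ligands, was read in 2 moLCs, and Cxcl5, Cxcl15 and Cxcr1 in no cell.

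In the CXCR4 group, Cxcr4 (chr1:128588199-128592293, minus strand), which retains cells where stroma makes CXCL12 and acts in the exit of LCs from the epidermis, had a read in 18.4% of the moLCs against 21.5% of the eLCs. The median over all cells was 0 and the highest value 146 CPM in moLCs and 176 in eLCs, and cells with a read had a median of 35.8 and 11.7 CPM. Summed CPM was 6.56 against 2.05 on plate 1 and 15.1 against 6.36 on plate 2, higher in moLCs on both. Plate 2 was above plate 1 by 2.31-fold in moLCs and 3.11-fold in eLCs. Cxcl12 was read in 2 eLCs and Ackr3, its atypical receptor, in 1 eLC.

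In the monocyte group, the share of cells with a Ccl2 read was 15.5% among moLCs (9.15 to 24%) and 7.59% among eLCs (2.84 to 15.8%). Cells lay between 0 and 345 CPM and between 0 and 1042 CPM. The summed level had the opposite order, 15.2 and 28.6 CPM, with 1 eLC of plate 1 holding 60.1% of the eLC reads. Without the cell with the most reads of each origin, the levels were 12.5 and 11.6 CPM. Cx3cl1, the membrane-bound ligand of CX3CR1, was read in 4 moLCs and 2 eLCs, 5 of them with Ccl22 reads. Ccr2, which takes monocytes out of the bone marrow, was read in 2 moLCs with 34 reads in all and Cx3cr1 in 1 eLC with 10 reads, and Ccl7 and Ccl12 were read in no cell.

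In the inflammatory CC group, Ccr1 reads were found in 20.4% of moLCs against 27.8% of eLCs. The highest moLC had 1003 CPM and the highest eLC 487 CPM, and the sums were 38.7 and 46.98 CPM. The log2 ratios of -0.37 and -0.38 on the plates and -0.28 over both all lay on the eLC side and under 2-fold. The number of genes read in a cell had a Spearman rho of 0.36 with Ccr1 CPM over 182 cells, the highest of the 9 members read in at least 10% of cells.

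Ccl3 was read in 7 moLCs and 4 eLCs, and in no eLC of plate 1, where 0 of 29 cells allows a share of up to 10.3% (limit of 3 cells) or 11.9% (exact interval). Sums were 34.8 and 15.97 CPM, and single cells reached 1306 and 2018 CPM. In eLCs 1 cell held 72.8% of the Ccl3 reads, and without it eLCs had 4.37 CPM and the log2 ratio went from 1.12 to 2.99. Without the 2 cells low in Cd207, moLCs had 29.6 CPM of Ccl3. Ccl4, a further attractant of monocytes and T cells, was read in 5 moLCs, 2 of them among the 11 cells with Ccl3. Ccl9, a further CCR1 ligand, was read in 3 moLCs, and Ccl6, Ccl24 and Ccr3 in 1 moLC each. No read was found for Ccl5 or Ccl11. All 11 cells with Ccl3 also had Cxcl2 reads, against 133 of the 171 cells without.

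Cxcl16 (chr11:70453983-70459984, minus strand) varied least. Its CPM ranged from 0 to 3981 in moLCs, with a median of 1741, and from 466 to 3501 in eLCs, with a median of 1731. The 2 cells without a read were moLCs of plate 1. Sums lay between 1723 CPM (moLCs of plate 1) and 1893 CPM (eLCs of plate 2), the log2 ratio was -0.05 (-0.03 and -0.01 on the plates), and leaving out any 1 cell kept it between -0.07 and -0.02. Its gene overlaps Zmynd15, which was read in 66 cells, and how reads of the overlap were counted is not stated. Cxcr6, the receptor of CXCL16, was read in 1 moLC.

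Xcr1 (chr9:123852315-123862029, minus strand), the receptor that marks cross-presenting DC1s, was read in 7 moLCs and 12 eLCs. The highest value was 172 CPM in a moLC, the second of those low in Cd207, and 86.7 CPM in an eLC. All 7 moLCs were on plate 1, and 0 of 36 moLCs of plate 2 allows a share of up to 8.33% (limit of 3 cells) or 9.74% (exact interval). All 19 cells with Xcr1 also had Cd207 and Epcam reads, as did nearly all of the other 163 cells (162 for Cd207 and 161 for Epcam). The DC1 gene Clec9a was read in 2 of these 19 cells and in 2 of the other 163, Batf3 in 1 and 6, Wdfy4 in 1 and 11, Itgae in 4 and 23 and Cadm1 in 7 and 63. The part of DC1s in the Xcr1 reads was not tested.

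Cxcr5, which guides cells to B cell follicles, was read in 8 moLCs and 9 eLCs. It had 7.88 CPM in moLCs against 6.06 in eLCs, where 1 cell held 52.2% of the reads, and the median of cells with a read was 136 and 3.38 CPM. Its gene overlaps Bcl9l, which was read in 2 of the 17 cells with Cxcr5. The epithelial ligands Ccl25 and Ccl27a, read in 9 cells each with 247 and 271 reads in all, overlap Elavl1 and Il11ra1, which were read in 9 and 3 of those cells. Ccl27b, Ccl28, Ccr9 and Ackr1 were read in 1 moLC each and Ccr10 in 1 eLC, and Ackr2, Cxcl13, Cxcl14, Cxcl17 and Xcl1 in no cell.

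Of the groups for CCR6 and CXCR3, Ccr6, which places LC precursors in the epidermis, had no read and its ligand Ccl20 was read in 1 moLC. The interferon-induced ligands Cxcl9 and Cxcl10 were read in 1 and 2 moLCs, and their receptor Cxcr3 in no cell. Cxcl11, which GENCODE types as a polymorphic pseudogene, had no read either.

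To compare the origins, summed CPM of moLCs was divided by that of eLCs, first over both plates and then for each. Of the 12 members, 3 (Ccl3, Cxcl3 and Cxcr4) differed by at least 2-fold in all cells, against 15% of the 10729 genes read in at least 5% of cells. Without the 2 moLCs low in Cd207, Cxcr4 alone of these 3 was still past 2-fold (1.03), with log2 ratios of 0.89 for Ccl3 and 0.66 for Cxcl3. The ratio of Ccl3 was 0.30 with equal weight for each cell and lay between 0.45 and 2.99 when 1 cell was left out. With at least 2-fold in 1 direction in all cells and on both plates, 1 member was left, Cxcr4, higher in moLCs. Over all genes 5.75% met this rule, 2.73% higher in moLCs and 3.02% higher in eLCs, so that 1 of 12 was near the background. The sums of Cxcr4 were 9.54 and 4.62 CPM, or 1.05 on the log2 scale (counting interval 0.94 to 1.15), with 1.68 on plate 1 and 1.25 on plate 2. With equal weight for each cell Cxcr4 had a log2 ratio of 0.58 and no longer met the rule, and Cxcr5 met it with 1.08. Without the cell with the most reads of each gene, Cxcr5 was again the member that met the rule.

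Of the 12 members, 7 had a higher sum in moLCs and 5 a higher sum in eLCs. Their median log2 ratio was 0.23, against -0.09 over all genes. The direction was the same in all cells and on both plates for 7 of the 12, and for 51.7% of all genes. The plates gave opposite directions for 5 members, Ccr7, Ccl22, Ccl2, Cxcl1 and Cxcl2. Leaving out 1 cell turned the direction of 4, Ccl2 (-1.20 to 0.39), Ccl22 (-0.03 to 1.35), Cxcl1 (-0.83 to 1.59) and Cxcl2 (-0.36 to 0.12). The ratio of Xcr1 was -0.43, and without the 2 moLCs low in Cd207 it was -1.003.

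**Figure D5:**
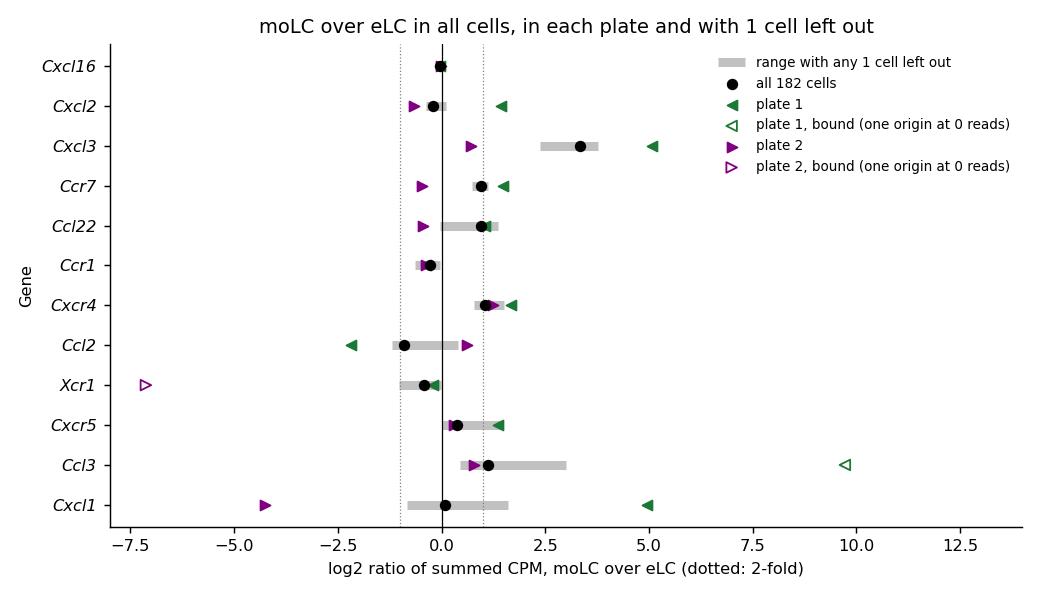
The log2 ratio of summed CPM of moLCs over eLCs (x axis) for 12 members (y axis), in all 182 cells (black points), within each plate (triangles, open where 1 origin had 0 reads and the value is a bound) and as the range when any 1 cell is left out (grey bars). Cxcr4 lies past 2-fold in all 3 ratios, and Cxcl1 has its plates at 4.96 and -4.24.

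The share was higher in moLCs for 4 members and in eLCs for 8, and the intervals of the origins overlapped for all 12. Thinning each cell to 2052512 reads kept the order of all 12 (7 moLCs and 12 eLCs were too shallow for it). The same count over all genes was not made. A cell had reads of a median of 4026 genes among moLCs and 4488 genes among eLCs. For 5 members (Ccr7, Ccl22, Cxcr4, Cxcr5 and Ccl2) the share and the summed CPM had opposite orders, so that no order is read from the share.

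Across the 182 cells, 36 pairs of the 9 members read in at least 10% of cells had a median Spearman rho of 0.08. Cells share plates and depth, and most values are 0. Cxcl2 and Cxcl3 had the highest rho, 0.88 (0.86 and 0.90 on plates 1 and 2, 0.87 in each origin), which rests mostly on low Cxcl3 counts that cannot be told apart from Cxcl2 reads. Ccl22 and Ccr7 followed with 0.36 (0.33 and 0.41 on the plates, 0.34 in moLCs and 0.40 in eLCs): 39 of the 70 cells with Ccl22 had Ccr7, against 28.6% of the 112 cells without. The next were Cxcl16 with Cxcr4 (0.25, with 0.14 in moLCs and 0.40 in eLCs), Ccr1 with Xcr1, both on chromosome 9 (0.23, with 0.05 and 0.39), and Ccr7 with Xcr1 (0.23, with 0.29 and 0.19). Ccr7 and Cxcr4 had 0.09, with 18 of 71 and 18 of 111 cells, and Ccl22 and Cxcr4 0.17.

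The 11 genes of LC maturation had a sum of 9764 CPM in moLCs against 9093 in eLCs, with none at 0. Over cells, their sum had a rho of 0.27 with Cxcl16, 0.25 with Ccr7, 0.16 with Cxcl2 and 0.05 with Ccl22. By gene, Ccl22 had its highest rho with Il4i1 (0.34), an enzyme of mature DCs, and Cd40 (0.28), and Ccr7 with Cd40 (0.29), Cd80 and Il4i1 (0.25 each). Fscn1, an actin bundler of migrating mature DCs, was read in 4 cells. The moLC without Cd207 had 964 CPM of Fscn1, 1263 CPM of Il4i1 and 1693 CPM of Samsn1. Its Cd40 (1325 CPM) and Socs2 (647) were also above the values over all cells, 914 and 19.1 CPM. By contrast, its Relb (325 CPM), Birc3 (181), Marcksl1 (279) and Cd83 (5365) were below them, at 461, 213, 414 and 5482 CPM.

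Genes that carry the signal of chemokine receptors to the cytoskeleton were read more evenly than the members. Of 39 genes listed, 35 were read in at least 5% of cells, in a median of 83.5% of cells, with a median of 3.82% of the reads in 1 cell. None of the 35 met the 2-fold rule in either direction, against 5.75% of all genes tested. For a list of 35 this is near the background. Their median log2 ratio was -0.03. Rac2 and Pik3cd met the rule but fell under the 5% limit (1.65% and 3.3% of cells), and neither had a read in eLCs. Of the 35, those read in the fewest cells, Gng10 (10.4%) and Arrb1 (11.5%), had 14.8% and 17.95% of their reads in 1 cell. Evenness was not compared between genes read in equal shares of cells. The highest levels were those of Rgs1 (4894 CPM in moLCs, 3868 in eLCs) and Rgs2 (3504 and 2793 CPM), which end G protein signals. Next were Cdc42 (1149 and 1230 CPM) and Cfl1 (979 and 1009 CPM), which act on actin.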

How the data were processed

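Single-cell cDNA of LCs was made with a Smart-Seq kit without molecular identifiers and sequenced as paired ends of 75 bases, so copies made by PCR add to the counts. The authors aligned reads to mm10 with STAR (per the labels and methods) and deposited the read counts of each gene in each cell, with no scaling. The tool and the annotation used for counting are not given in the sources used here. The deposited expected counts, 8 columns with 9 values that were not whole, none in a member, were rounded.

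Members and gene lists were chosen with earlier results of these data known: all genes that match the symbol rule, grouped by role, with those read in at least 5% of cells given in full. For each origin, counts of its cells were added up and scaled to 1000000 reads (CPM). A sum of 0 was set to 3 reads over the group. Differences are log2 ratios, moLCs over eLCs, over both plates and for each plate, the only batch in the labels. Cells are not replicates, so the rank-sum test on cells of the study's methods was not repeated. Intervals of shares (Clopper-Pearson) and ratios (exact binomial) are at 95%. Counts were even in 82.8% of values above 0, so both ends of a pair may have been counted, and intervals are then too narrow. No doublet caller was run on the singly sorted cells. Coordinates and exon lengths are from GENCODE M21 (GRCm38), in which all 60 members were found, and upstream sequences from RefSeq (45 members). Protein sequences were not used here. The values of 1 member are not reported here.

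Python 3.11.15 with numpy 2.4.6, pandas 2.3.3, scipy 1.17.1 and matplotlib 3.10.9 was used, and R 4.3.3 with edgeR 4.0.16 (TMM factors) and DESeq2 1.42.0 (size factors) for scaling. The ratios and the 2-fold rule were tested on simulated counts, drawn for all cells of an origin around 1 mean per gene. That setting does not show how the rule behaves for members whose reads lie in few cells. Alternatives were other scalings, filters and thresholds, equal weight for each cell, thinning to 2052512 reads (the depth under which the shallowest 10% of cells lie), each plate alone and each cell left out.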

Additional observations from a re-analysis of the deposited data

How the results depend on the processing

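The number of members read in at least 5% of cells, 12, stayed at 12 with no mitochondrial filter, with a minimum of 10 reads in a cell and with thinned cells. It was 13 without the 2 moLCs low in Cd207, an alternative chosen after the data were seen, and 18 and 9 with shares of at least 2% and 10%. The number of members past the 2-fold rule, 1, was 3 at 1.5-fold (Ccl3, Cxcl3 and Cxcr4), 0 at 3-fold, 6 with no filter on the share of cells, 0 with a read asked for in 25% of the cells of 1 origin, 2 with no mitochondrial filter (Cxcl3 and Cxcr4) and 2 with thinned cells (Ccl3 and Cxcr4). It stayed at 1 with TMM factors, DESeq2 size factors, cells of at least 1000 genes and without the 2 moLCs low in Cd207, and at 1 with another gene, Cxcr5, under equal weight for each cell and without the cell with the most reads of each gene.

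The log2 ratio of Ccr7, 0.96, was 0.79 with equal weight for each cell, 1.06 with TMM factors, 1.05 with DESeq2 size factors, 0.97 with no mitochondrial filter, 0.64 with thinned cells, 0.85 without the 2 moLCs low in Cd207, 1.49 on plate 1 alone and -0.48 on plate 2 alone, and 0.73 to 1.13 when each cell was left out in turn. Over the 12 members, TMM factors, DESeq2 size factors and equal weight for each cell each turned the direction of 1 member. Plate 1 alone turned 1 and plate 2 alone 4. The causes were not tested. TMM factors moved the median log2 ratio of all genes from -0.09 to 0.01, and Cxcl16 went from -0.05 to 0.05. No paired analysis was possible because no label names the animal of a cell, and no test was run. With 1 sample an origin, differences between animals cannot be told apart from differences between origins, and 2 or 3 cells held 50% of the reads of Ccl2, Ccl3, Ccl22, Cxcl1 and Cxcl3.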
